A study of Mus musculus with 54 samples.

Results

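Urea cycle and amino acid catabolism genes were followed in the hearts and livers of *Mrps12* mutant mice, as 42 genes matched by symbol among 54356 gene rows in each tissue. All 42 were found in both tissues. Of these, 42 in the liver and 40 in the heart had a mean of at least 10 normalized counts and were tested. *Nags* and *Ido2* stayed below this level in the heart. The mice were male C57BL/6 animals of 20 weeks on a high-fat diet (HFD) with 42% of its energy as fat. They carried *Mrps12+/+*, the error-prone *Mrps12ep/ep* or the hyper-accurate *Mrps12ha/ha* alleles, both of which are point mutations, present in every tissue, of a protein in the small subunit of the mitochondrial ribosome. RNA came from whole heart or liver of 3 mice per genotype, and each of the 9 columns of a tissue was taken as 1 mouse with its 3 technical libraries, from the sample numbers in the labels. The study's methods also say that independent biological replicates were combined before quantification, which those 9 columns do not match, so n = 3 counts columns. Whether the heart and the liver of the same number came from one mouse was not stated, nor was the feeding state at collection.

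The urea cycle turns the ammonia released from amino acids into urea, and the full cycle runs in hepatocytes. Enzymes around the portal vein carry out urea synthesis, glutamine breakdown and histidine and serine catabolism, while the hepatocytes next to the central vein capture remaining ammonia with glutamine synthetase. Muscle and heart lack most of these enzymes and use transaminases and the branched-chain keto acid dehydrogenase instead. Many of the liver enzymes rise with glucagon, glucocorticoids and dietary protein and fall in the acute phase response.

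Recovered depth ranged from 21238039 to 81518262 reads in the livers and from 11202866 to 51480271 reads in the hearts, with *Mrps12ha/ha* mouse 2 as the shallowest heart. Hepatocyte markers (15 genes, none at 0 in any liver) summed to between 7102498 and 8436979 normalized counts in the livers, and cardiomyocyte markers (10 genes, none at 0 in any heart) to between 2401215 and 3779836 in the hearts, as the tissue labels state. The liver of *Mrps12+/+* mouse 3 stood apart. Its acute phase transcripts (10 genes) summed to 2177741 normalized counts, against 265516 to 331329 in the other 8 livers. Fast skeletal muscle markers (12 genes) summed to 30972 and 40026 in the livers of *Mrps12+/+* mouse 1 and mouse 2, against 44.2 to 222 in the other 7. Clock genes (13 genes) summed to between 39466 and 46548 in *Mrps12ha/ha* and between 29618 and 30825 in *Mrps12+/+* livers. The part of these differences in the results below was not tested. Values without *Mrps12+/+* mouse 3 are given for the members as a whole and for part of the single members, not for every value that rests on it. In whole tissue, fewer cells of a type cannot be told apart from less RNA per cell.

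In *Mrps12+/+* livers the most abundant member per length was the tyrosine aminotransferase *Tat*, with 1354 ± 501 RPKM (SD, n = 3; reads per kilobase of exon, scaled to depth). It was followed by the argininosuccinate synthase *Ass1* (964 ± 554), the glycine N-methyltransferase *Gnmt* (952 ± 447), the methionine adenosyltransferase *Mat1a* (871 ± 121) and the tyrosine pathway dioxygenase *Hpd* (865 ± 315). The SDs of these 5 levels overlap. The branched-chain aminotransferase *Bcat2*, known as the form of tissues outside the liver, was lowest at 3.71 ± 1.09. As a share of reads, averaged over the *Mrps12+/+* mice, 5 members (*Bcat2*, *Got1*, *Got2*, *Bckdha* and *Dbt*) were higher in the heart than in the liver. The other 37 were higher in the liver, from 1.43-fold for *Bckdhb* and 1.85-fold for *Glul* to 411-fold for *Tat*, 462-fold for *Mat1a* and 678-fold for *Hal*.

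**Figure D1:**
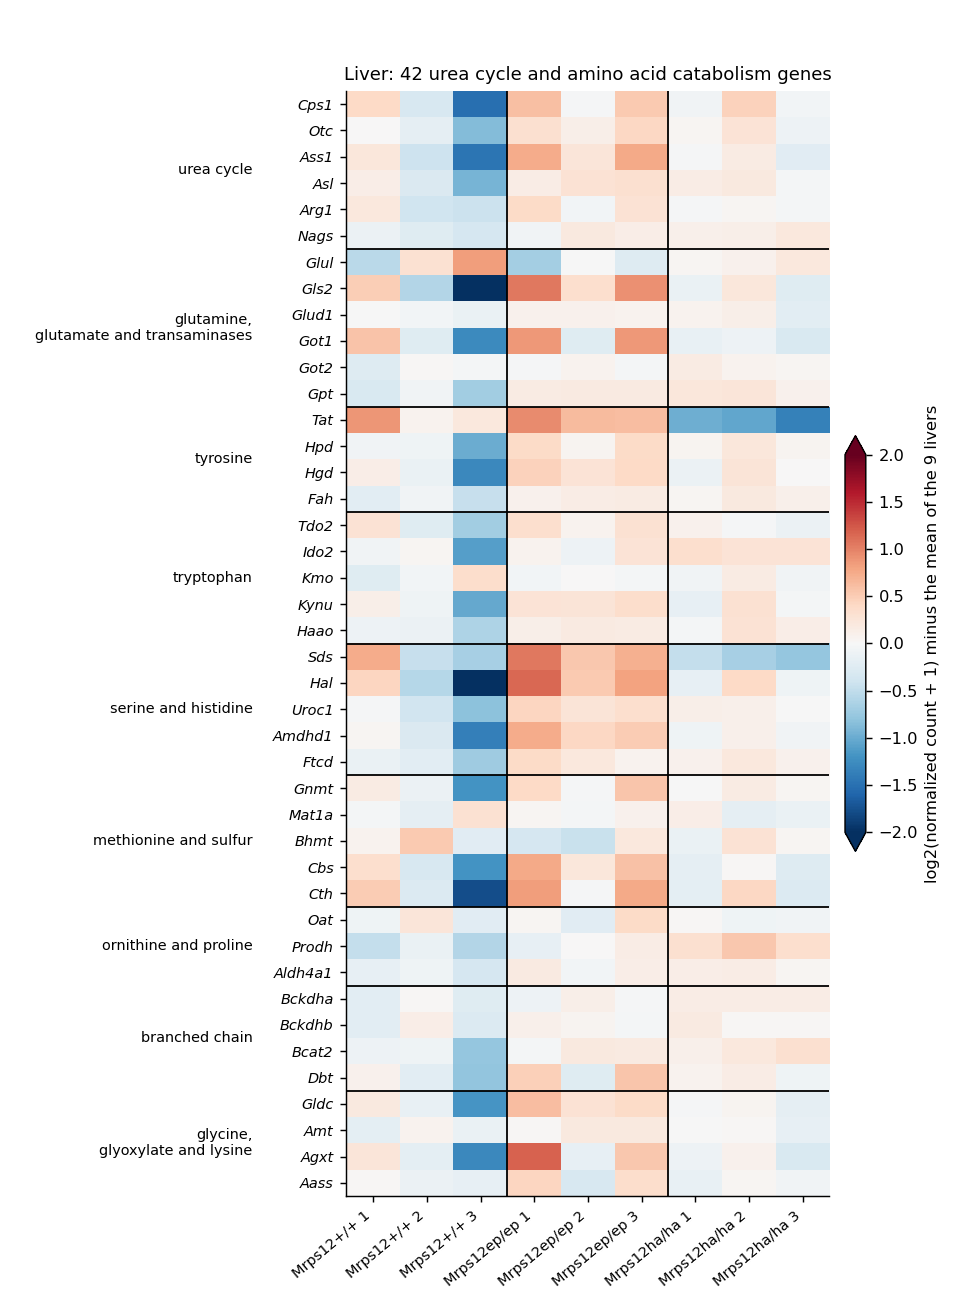
Each row is one of the 42 genes in its pathway and each column one liver; the colour is log2(normalized count + 1) minus the mean of the 9 livers. The third *Mrps12+/+* liver is the lowest in 32 of the 42 rows, and *Tat* is low in the 3 *Mrps12ha/ha* livers.

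The lowest liver was *Mrps12+/+* mouse 3 for 32 of 42 members, against 19.1% of all tested genes. The 10 others were *Glul*, *Glud1*, *Got2*, *Tat*, *Kmo*, *Sds*, *Mat1a*, *Bhmt*, *Amt* and *Aass*. The same liver was the highest for *Glul*, *Mat1a* and *Kmo*, 3 members against 21.9% of genes. The glutaminase *Gls2* had 19776, 9319 and 3358 normalized counts in *Mrps12+/+* mice 1, 2 and 3, and the histidine ammonia lyase *Hal* had 14253, 7078 and 1852. The carbamoyl phosphate synthetase *Cps1*, which commits ammonia to the urea cycle, had 143050, 86227 and 37960. Glutamine synthetase *Glul* had 37984, 67831 and 98377, with mouse 3 as the highest instead of the lowest. For each of these 4 genes mouse 2 lay between the others.

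The comparison of *Mrps12ep/ep* with *Mrps12+/+* livers addresses whether error-prone mitochondrial translation moves these enzymes on the HFD. Every urea cycle enzyme had a positive log2 fold change, as did 39 of the 42 members, against 48.9% of all genes, while 3 members were below 0, against 51.1%. The members' median was 0.50 and that of all genes -0.01. No member passed an adjusted p of 0.05 from limma (1 of all genes did, 0.00653%), and none did with limma-voom. At an unadjusted p under 0.05, 23 members were higher and 0 lower, where 4.62% of all genes were higher and 5.12% lower. All 3 *Mrps12ep/ep* livers lay above all 3 *Mrps12+/+* livers for 18 members, against 6.49% of genes, and below them for 0 members, against 6.28%. An exact permutation test of 3 against 3 mice cannot give a p below 0.1. Without *Mrps12+/+* mouse 3, the median was 0.29, 0 members passed the threshold (0.470% of genes did), 15 members were higher at an unadjusted p under 0.05 and 0 lower, and 19 did not overlap and were higher, against 9.04% of genes, with 0 lower, against 10.0%. Without *Mrps12+/+* mouse 1, 29 were higher (15.5% of genes) and 1 lower (15.2%), and without *Mrps12ep/ep* mouse 2, 30 were higher (11.6%) and 0 lower (11.2%).

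Of the 6 urea cycle genes, *Ass1*, *Asl*, *Otc* and *Nags* did not overlap, where 6.49% of all genes were higher without overlap. *Ass1*, which joins citrulline and aspartate, had 175189, 113530 and 54651 normalized counts in *Mrps12+/+*, 252874, 177713 and 253630 in *Mrps12ep/ep* and 147957, 168128 and 128521 in *Mrps12ha/ha* livers. The lowest *Mrps12ep/ep* value was just above the highest *Mrps12+/+* value. Its log2 fold change was 1.13 (SE 0.38, adjusted p = 0.454 from limma), and 0.67 without *Mrps12+/+* mouse 3. *Cps1* was 89079 ± 52603 in *Mrps12+/+* and 142434 ± 31519 in *Mrps12ep/ep* livers (SD, n = 3), and the groups overlapped. The arginase *Arg1*, which releases urea, was 58716 ± 15596 and 76867 ± 11971, with overlap too. *Nags*, whose product activates *Cps1*, was 2134 ± 158 and 2665 ± 241, a log2 fold change of 0.32 (SE 0.10, adjusted p = 0.423 from limma) that was 0.27 without *Mrps12+/+* mouse 3.

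The histidine and serine genes had the largest median, 0.89. All 5 were higher at an unadjusted p under 0.05 (limma), where 4.62% of all genes were. *Hal*, *Uroc1*, *Amdhd1* and *Ftcd*, which act in order from histidine to glutamate, did not overlap, where 6.49% of all genes were higher without overlap. *Hal* had 23546, 15233 and 18543 normalized counts in *Mrps12ep/ep* and 9461, 13936 and 10002 in *Mrps12ha/ha* livers, so that every *Mrps12ep/ep* liver was above every other liver. Its log2 fold change against *Mrps12+/+* was 1.72 (SE 0.59, adjusted p = 0.456 from limma), and 0.90 without *Mrps12+/+* mouse 3. *Uroc1*, the urocanase that acts next, had 24312, 19076 and 14031 in *Mrps12+/+*, 33509, 29614 and 31285 in *Mrps12ep/ep* and 27056, 26551 and 24702 in *Mrps12ha/ha* livers. It was the one member whose groups did not overlap in any of the liver comparisons, in the order *Mrps12+/+*, *Mrps12ha/ha*, *Mrps12ep/ep*, with a log2 fold change of 0.75 in *Mrps12ep/ep* livers (SE 0.18, adjusted p = 0.342 from limma) that was 0.55 without *Mrps12+/+* mouse 3. *Amdhd1*, the imidazolonepropionase, was 6939 ± 3050 in *Mrps12+/+* and 13675 ± 1694 in *Mrps12ep/ep* livers (SD, n = 3), and its log2 fold change without mouse 3 was 0.67. *Sds*, the serine dehydratase that feeds pyruvate to gluconeogenesis, had 22164, 9619 and 8394 in *Mrps12+/+* and 27433, 19282 and 21717 in *Mrps12ep/ep* livers, where *Mrps12+/+* mouse 1 reached into the other group.

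**Figure D2:**
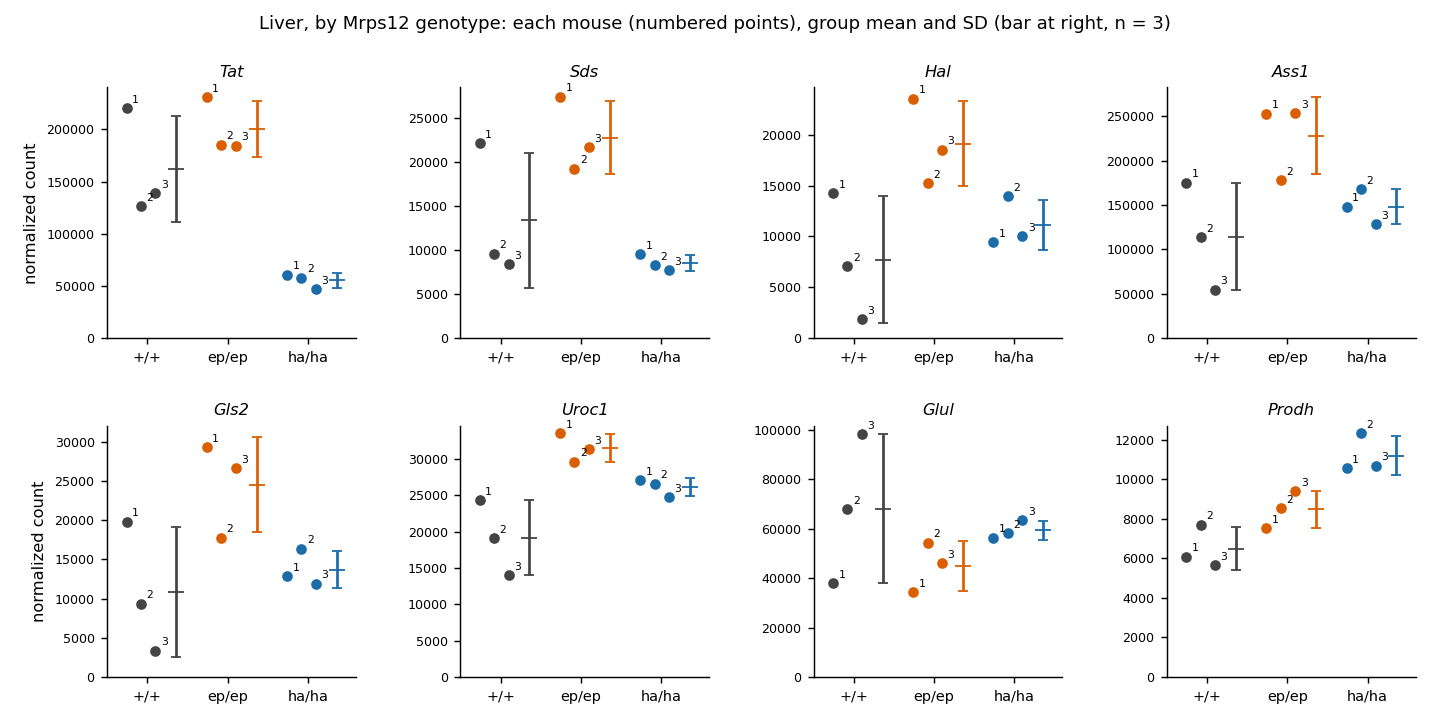
Normalized counts (vertical axes, from 0) of 8 genes in the liver; points are the 3 mice of each genotype and the bars the mean ± SD. *Tat* is lowest in the 3 *Mrps12ha/ha* livers, and *Hal*, *Ass1* and *Uroc1* are highest in the 3 *Mrps12ep/ep* livers.

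Among the other pathways, *Gls2* had the largest difference, with a log2 fold change of 1.49, but its groups overlapped, and it was 0.82 without *Mrps12+/+* mouse 3. In the tyrosine pathway *Hpd* (0.66), *Hgd* (0.81) and *Fah* (0.38) did not overlap, whereas *Tat*, which starts it, was 0.34 with overlap. *Gldc*, the decarboxylase of the glycine cleavage system, had 8668, 6811 and 3343 normalized counts in *Mrps12+/+* and 11582, 9282 and 9939 in *Mrps12ep/ep* livers, a log2 fold change of 0.81 (SE 0.29, adjusted p = 0.456 from limma) and 0.41 without mouse 3. The alanine aminotransferase *Gpt* had 10587, 12385 and 8035 in *Mrps12+/+* and 14570, 14728 and 14730 in *Mrps12ep/ep* livers, a log2 fold change of 0.53. The remaining members that did not overlap were *Glud1*, *Kynu*, *Haao*, *Aldh4a1* and *Bcat2*, with log2 fold changes of 0.15 to 0.63.

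In methionine and sulfur metabolism 4 of 5 genes were above 0, with a median of 0.69, and the groups overlapped for all 5. *Cth*, which releases cysteine, was 1.04, *Cbs*, which commits homocysteine to cysteine, 0.91, *Gnmt* 0.69, *Mat1a* 0.00 and the betaine methyltransferase *Bhmt* -0.31. *Oat*, the ornithine aminotransferase found with *Glul* around the central vein, was 0.09, *Glul* itself was -0.52, and *Kmo* was -0.04. The tryptophan dioxygenase *Tdo2* (0.45) and the glyoxylate aminotransferase *Agxt* (0.93) were higher on average with overlap, as was *Bckdha*, the catalytic subunit of the branched-chain dehydrogenase (0.14). The 10 members that textbooks place around the portal vein were all higher on average, with a median of 0.80. Of these, 6 did not overlap, where 6.49% of all genes were higher without overlap. The pericentral members *Glul* and *Oat* had a median of -0.22. Portal markers that are no members (6 genes) had a median of 0.35 and central markers (9 genes) of -0.05. *Mrps12+/+* mouse 3 was the lowest liver for *Cth*, *Cbs*, *Gnmt*, *Oat*, *Tdo2*, *Agxt* and *Bckdha* and the highest for *Glul*, *Mat1a* and *Kmo*. The values and medians of this paragraph include that mouse. Over 16 settings the lowest log2 fold change was 0.40 for *Cth*, 0.51 for *Cbs* and 0.50 for *Agxt*.

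**Figure D3:**
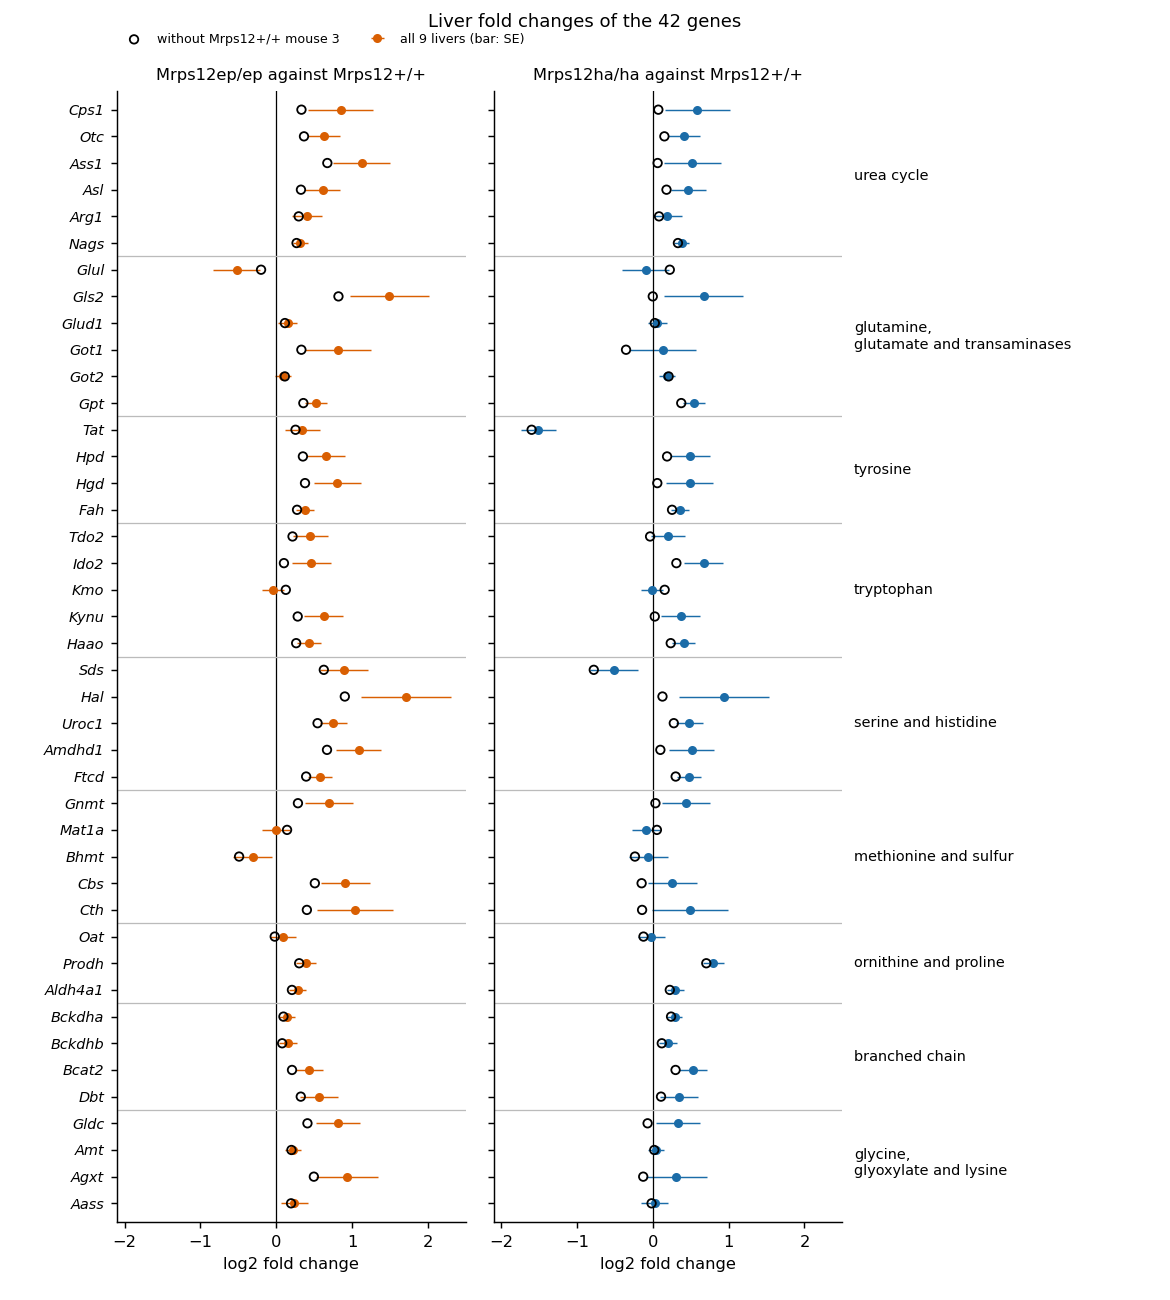
Log2 fold changes of the 42 genes against *Mrps12+/+* livers (horizontal axes), with all 9 livers (filled points, bars ± SE) and without *Mrps12+/+* mouse 3 (open circles). Most *Mrps12ep/ep* values stay above 0 without that mouse (39 of 42), and the *Mrps12ha/ha* values then have a median of 0.09.

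The same 3 *Mrps12+/+* livers served as the controls of *Mrps12ha/ha*, which ties this comparison to the one above. *Tat* was the member that differed most, in the opposite direction to most others. It had 220456, 126481 and 138916 normalized counts in *Mrps12+/+*, 231094, 185339 and 184606 in *Mrps12ep/ep* and 60991, 58176 and 47198 in *Mrps12ha/ha* livers. The 3 *Mrps12ha/ha* livers lay below the other 6, at 2.92-fold less than *Mrps12+/+* and 3.61-fold less than *Mrps12ep/ep* on average. The log2 fold change against *Mrps12+/+* was -1.51 (SE 0.23, adjusted p = 0.0722 from limma), which misses the threshold. Over 16 settings the log2 fold change stayed between -1.67 and -1.27 and the adjusted p between 0.0336 and 0.280. It passed 0.05 in 2 of these, without *Mrps12+/+* mouse 2 (0.0413) or mouse 3 (0.0336).

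No member passed an adjusted p of 0.05 against *Mrps12+/+* (limma; 0.00653% of genes did), and none did with limma-voom. At an unadjusted p under 0.05, 11 members were higher, where 7.07% of genes were, and 1 was lower, where 7.05% were. The groups did not overlap for 13 members that were higher, against 10.0% of genes, and for 1 that was lower (*Tat*), against 9.81%. The log2 fold change was above 0 for 35 members, against 47.5% of genes, and below 0 for 7, against 52.4%. The median of the members was 0.35 and that of all genes -0.02. Without *Mrps12+/+* mouse 3 the median was 0.09, with 30 members higher and 12 lower, 1 called (*Tat*, 0.601% of genes), 13 not overlapping and higher (14.3% of genes) and 2 not overlapping and lower (15.2%). Without *Mrps12+/+* mouse 1, 26 were higher (15.8%) and 2 lower (17.3%).

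*Prodh*, the proline dehydrogenase of the mitochondrial inner membrane, had the largest increase among the members that did not overlap. It had 6086, 7706 and 5659 normalized counts in *Mrps12+/+*, 7536, 8518 and 9393 in *Mrps12ep/ep* and 10548, 12335 and 10688 in *Mrps12ha/ha* livers. Every *Mrps12ha/ha* liver was above every other liver, with a log2 fold change of 0.80 (SE 0.14, adjusted p = 0.0851 from limma) that was 0.70 without *Mrps12+/+* mouse 3. *Ido2*, a tryptophan dioxygenase, had 3861, 4130 and 1884 in *Mrps12+/+* and 5086, 4894 and 4875 in *Mrps12ha/ha* livers, a log2 fold change of 0.67 and, without mouse 3, of 0.31. *Gpt* was 0.54 and *Bcat2* 0.53, or 0.37 and 0.30 without that mouse. *Bckdha* had 14092, 14117 and 14051 normalized counts in *Mrps12ha/ha* livers, all above the *Mrps12+/+* range of 10790 to 12957 (log2 fold change 0.29, adjusted p = 0.261 from limma).

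Urea cycle enzymes were closer to *Mrps12+/+* here. Only *Nags* of the 6 did not overlap, where 10.0% of all genes were higher without overlap. It had 2300, 2117 and 1984 normalized counts in *Mrps12+/+* and 2699, 2728 and 2902 in *Mrps12ha/ha* livers, a log2 fold change of 0.38 that was 0.33 without mouse 3. *Cps1* (0.59), *Ass1* (0.52) and *Arg1* (0.19) were at 0.07, 0.06 and 0.08 without that mouse. *Hal* went from 0.94 to 0.13, *Gldc* from 0.33 to -0.07 and *Cbs* from 0.25 to -0.15. *Sds* was -0.51 and overlapped, and *Hpd* was 0.49 and did not. *Glul* (-0.09), *Oat* (-0.02), *Mat1a* (-0.09), *Gnmt* (0.44), *Tdo2* (0.20) and *Agxt* (0.31) overlapped.

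The direct comparison of *Mrps12ha/ha* with *Mrps12ep/ep* livers does not use the *Mrps12+/+* means. The members' median was -0.20 (30 lower and 12 higher, where 50.2% and 49.7% of genes were), against 0.00 over all genes. The groups did not overlap for 10 members that were lower in *Mrps12ha/ha*, against 9.01% of genes, and for 3 that were higher, against 8.82%. Without *Mrps12ep/ep* mouse 2 these were 22 (17.6% of genes) and 4 (18.3%), and without *Mrps12ha/ha* mouse 2 they were 17 (15.7%) and 3 (14.1%). None passed an adjusted p of 0.05 (limma; 0.00653% of genes did, and limma-voom called no member), and 2 were lower and 1 higher at an unadjusted p under 0.05, where 4.45% and 4.17% of genes were. *Tat* had a log2 fold change of -1.85 (SE 0.23, adjusted p = 0.0706 from limma). It passed the threshold with only these genotypes in the fit (0.0210), with array weights (0.00754) and with the mouse number as a block (0.0404). Over 16 settings its adjusted p reached 0.558. *Sds* had 9530, 8334 and 7754 normalized counts in *Mrps12ha/ha* livers, below the lowest *Mrps12ep/ep* value of 19282, a log2 fold change of -1.41 (SE 0.32, adjusted p = 0.417 from limma). It passed with only these genotypes in the fit (0.0266).

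*Gls2* (-0.82), *Hal* (-0.78), *Cbs* (-0.66), *Ass1* (-0.61), *Amdhd1* (-0.57), *Gldc* (-0.48), *Hgd* (-0.32) and *Uroc1* (-0.27) were the other members that did not overlap and were lower in *Mrps12ha/ha* livers. The 10 portal members were all lower on average, with a median of -0.26, and 5 of them did not overlap, where 9.01% of all genes were lower without overlap. *Glul* was higher, at 56347, 58173 and 63477 normalized counts against 34431, 54352 and 46129, a log2 fold change of 0.42, and so were *Prodh* (0.40) and *Bckdha* (0.14). *Cps1* (-0.26), *Arg1* (-0.22), *Oat* (-0.10), *Hpd* (-0.16), *Tdo2* (-0.25), *Mat1a* (-0.09), *Gnmt* (-0.25), *Agxt* (-0.62) and *Bcat2* (0.09) overlapped. The highest of the 9 livers was an *Mrps12ep/ep* mouse for 27 of 42 members (30.6% of genes) and an *Mrps12ha/ha* mouse for 11 (26.4% of genes).

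The promoters of 6 members are shown, those whose liver groups did not overlap in the most comparisons and that have a promoter in the table used. Sequences are from RefSeq on GRCm38.p6, which gave a promoter for 31 of the 42 members. Each is 150 bases, 5′ to 3′ on the gene's strand. It ends upstream of the RefSeq start, with 5 bases between for Uroc1, 63 for Ass1 and 0 for the others. For Uroc1, Hal, Ass1 and Amdhd1 the last base lies just before the GENCODE start of the gene. For Tat and Gldc the GENCODE start lies further downstream than the RefSeq start. Capitals mark the motifs found, read on either strand, which were the CCAAT box, the TATAAA box and the AGGTCA hexamer bound by nuclear receptors. Positions are counted from the RefSeq start. No marked motif shares bases with another.
Tat, chr8:109990286-109990435, plus strand: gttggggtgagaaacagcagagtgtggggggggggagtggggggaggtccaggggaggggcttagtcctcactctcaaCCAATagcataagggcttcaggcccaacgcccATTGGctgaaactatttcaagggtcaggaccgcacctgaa
Hal, chr10:93488618-93488767, plus strand: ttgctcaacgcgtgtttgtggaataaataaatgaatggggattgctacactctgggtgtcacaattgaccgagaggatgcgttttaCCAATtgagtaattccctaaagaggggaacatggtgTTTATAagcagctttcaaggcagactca
Uroc1, chr6:90333134-90333283, plus strand: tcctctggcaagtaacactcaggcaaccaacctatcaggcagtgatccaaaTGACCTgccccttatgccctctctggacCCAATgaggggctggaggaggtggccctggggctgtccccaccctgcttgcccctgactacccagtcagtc
Ass1, chr2:31470057-31470206, plus strand: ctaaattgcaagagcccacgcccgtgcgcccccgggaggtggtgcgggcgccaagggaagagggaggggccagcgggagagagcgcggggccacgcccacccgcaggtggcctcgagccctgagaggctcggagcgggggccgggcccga
Amdhd1, chr10:93540034-93540183, minus strand: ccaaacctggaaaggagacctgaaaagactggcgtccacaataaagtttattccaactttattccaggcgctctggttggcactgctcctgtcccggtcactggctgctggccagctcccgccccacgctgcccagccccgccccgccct
Gldc, chr19:30175442-30175591, minus strand: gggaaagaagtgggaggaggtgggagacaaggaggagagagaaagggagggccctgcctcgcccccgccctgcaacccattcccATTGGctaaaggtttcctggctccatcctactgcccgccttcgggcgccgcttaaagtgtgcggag

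*Tat* carried 2 CCAAT boxes, with their first bases 72 and 40 bases upstream of the RefSeq start. *Hal* carried a CCAAT box at 64 bases and a TATAAA match at 28 that reads on the strand opposite to the gene. *Gldc* carried a CCAAT box at 66, and *Uroc1* an AGGTCA hexamer at 104 and a CCAAT box at 76. None of the searched motifs lay in the 150 bases printed for *Amdhd1* or *Ass1*, while the 250 bases searched for *Ass1* hold an E-box. In the 250 bases upstream of the start, CCAAT was present in 16 of the 31 members with a promoter (51.6%) and in 33.8% of all 32851 promoters. AGGTCA was present in 13 (41.9%) against 14.0%, TATAAA in 5 (16.1%) against 12.4%, and the HNF1 motif GTTAAT in 4 (12.9%) against 6.43%. AGAACA, part of the glucocorticoid response element, was present in 3 (9.68%) against 16.1%, and TGACG, part of the cyclic AMP response element, in 2 (6.45%) against 17.8%. The E-box CACGTG was present in 2, *Ass1* and *Cbs* (6.45%), against 6.02%, and the forkhead motif TGTTTAC in 0 against 3.17%. A match describes these letters and not a bound site.

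Other enzymes and transporters of amino acid catabolism (81 genes, 78 tested in the liver) had a median log2 fold change of 0.15 in *Mrps12ep/ep* and 0.18 in *Mrps12ha/ha* livers against *Mrps12+/+*. None passed an adjusted p of 0.05 in these comparisons (limma). At an unadjusted p under 0.05, 16 were higher and 2 lower in *Mrps12ep/ep* (4.62% and 5.12% of all genes), and 22 were higher and 3 lower in *Mrps12ha/ha* livers (7.07% and 7.05%). The groups did not overlap for 9 that were higher and 3 lower in *Mrps12ep/ep* (6.49% and 6.28% of all genes) and for 25 higher and 2 lower in *Mrps12ha/ha* livers (10.0% and 9.81%). The largest such changes in *Mrps12ha/ha* were *Csad*, which makes taurine from cysteine (-1.67), *Aspa* (0.89), *Dhtkd1*, a dehydrogenase of lysine breakdown (0.89), and *Afmid*, which acts after *Tdo2* in the tryptophan pathway (0.73). In *Mrps12ep/ep* livers they were *Mmab* (-0.78), *Sardh* (0.64), *Prodh2* (0.59) and *Sqor* (0.50). In *Mrps12ha/ha* against *Mrps12ep/ep* livers the median was 0.00, and *Kyat3* (-0.97), *Csad* (-0.89), *Sdsl*, a relative of *Sds* (-0.67), and *Mmab* (0.45) were the largest.

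Of 14 regulators known for these pathways, 14 were tested in the liver and 0 passed an adjusted p of 0.05 (limma). At an unadjusted p under 0.05, 4 were higher and 2 lower in *Mrps12ha/ha* against *Mrps12+/+* livers (7.07% and 7.05% of all genes). In *Mrps12ep/ep* against *Mrps12+/+* livers 2 were higher and 1 lower (4.62% and 5.12%). In *Mrps12ha/ha* against *Mrps12ep/ep* livers 2 were higher and 5 lower (4.17% and 4.45%). Against *Mrps12+/+*, in *Mrps12ha/ha* livers, *Ahr* (-1.41), *Foxa2* (1.19, adjusted p = 0.0722), *Cebpa* (higher, adjusted p = 0.0935) and *Cebpb* (-0.59) had the largest changes without overlap. In that comparison 4 regulators were higher and 2 lower without overlap (10.0% and 9.81% of all genes). Against *Mrps12ep/ep* livers *Klf15*, a glucocorticoid-induced activator of amino acid catabolism, was -0.94 and *Foxa2* 0.70. There 4 regulators were higher and 4 lower without overlap (8.82% and 9.01% of all genes). In *Mrps12ep/ep* against *Mrps12+/+* livers *Ahr* was -0.72, *Klf15* 0.51 and *Foxa2* 0.49, again without overlap. Of 9 genes of the fasting response, 6 were higher and 3 lower on average in *Mrps12ha/ha* than in *Mrps12ep/ep* livers, with a median of 0.07. None passed, and 3 were lower and 0 higher at an unadjusted p under 0.05, where 4.45% and 4.17% of all genes were. *Igfbp1* (-1.65), *G6pc* (-1.67) and *Pck1* (-0.86) were lower in every *Mrps12ha/ha* than in every *Mrps12ep/ep* liver, as *Tat* and *Sds* were, and *Cpt1a* (0.31) was higher in every one. Their part in the values of *Tat* and *Sds* was not tested. Against *Mrps12+/+*, 7 of the 9 fasting genes were lower and 2 higher on average in *Mrps12ha/ha* livers, with a median of -0.55. In *Mrps12ep/ep* livers 7 were also lower and 2 higher, with a median of -0.37. All 6 genes of the fed response were higher on average in both, with medians of 0.69 and 0.72. The part of these lists in the values of the members was not tested.

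In the heart, members were set beside hepatocyte transcripts. Each gene's share of the reads in a heart was set against its mean in *Mrps12+/+* livers. For 26 members this share was not above that of the highest hepatocyte marker in every heart, and for 16 it was: *Asl*, *Glul*, *Glud1*, *Got1*, *Got2*, *Gpt*, *Fah*, *Oat*, *Prodh*, *Aldh4a1*, *Bckdha*, *Bckdhb*, *Bcat2*, *Dbt*, *Gldc* and *Amt*. This split was made after the values were seen, from these same 9 hearts, and is a description. A member that is low in any heart tends to fall among the 26, so medians of the sets below are no separate results. The 26 are not alike: *Sds* was at 14.4, 13.4 and 27.9 per mille of its liver level in *Mrps12+/+* mice 2 and 3 and *Mrps12ep/ep* mouse 2, above every marker there. In *Mrps12ep/ep* mouse 2 the highest markers were *Ahsg*, at 10.4 per mille, and *Trf*, at 5.26, far above the marker median. Members far above that median there were *Nags* (13.5), *Aass* (6.64), *Cth* (5.82), *Kmo* (4.22), *Gls2* (2.76), *Ass1* (2.49), *Cbs* (1.45) and *Tat* (1.05), among others. The 15 hepatocyte markers had a median of 4.81 per mille of the liver level in *Mrps12+/+* mouse 1, 3.49 in *Mrps12ep/ep* mouse 1 and 4.90 in *Mrps12ha/ha* mouse 2, against 0.0397 to 2.04 in the other 6 hearts. These 3 hearts were the highest of the 9 for 19 of 40 members tested, against 3.94% of genes. *Mrps12ep/ep* mouse 2, with the lowest marker median, was the lowest heart for 22 members, against 13.2% of genes.

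**Figure D4:**
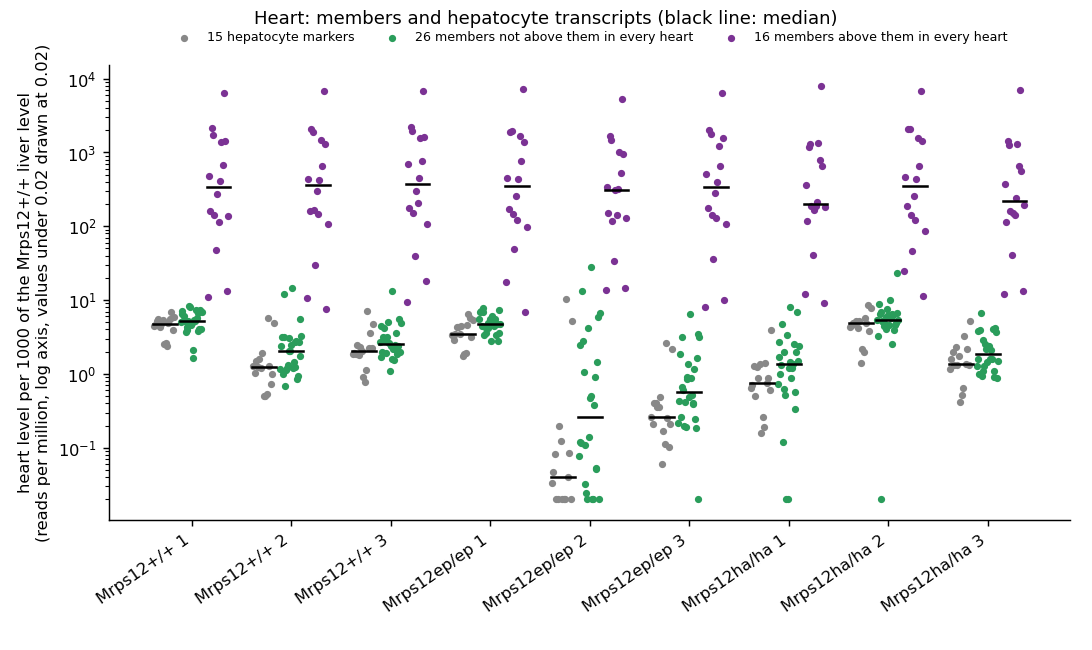
Level of each gene in each heart in per mille of its mean in *Mrps12+/+* livers (log axis), for 15 hepatocyte markers (grey), 26 members (green) and 16 members (purple), with medians as black lines. The green median is lowest in the hearts with the lowest grey medians, and single green points are not (up to 27.9 in the second *Mrps12ep/ep* heart). The purple medians stay far above both, and the purple members were chosen to lie above the grey ones in every heart.

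*Cps1* had 301, 67.5 and 157 normalized counts in *Mrps12+/+*, 339, 4.10 and 12.7 in *Mrps12ep/ep* and 44.2, 332 and 76.8 in *Mrps12ha/ha* hearts. The 26 members summed to 4160, 1300 and 2210 in *Mrps12+/+*, 3833, 738 and 543 in *Mrps12ep/ep* and 963, 4639 and 1479 in *Mrps12ha/ha* hearts. The groups overlapped for both. The 15 hepatocyte markers summed to 21651, 7865 and 10892, to 17781, 4102 and 2448, and to 4609, 22219 and 7840 in the same order, with *Mrps12+/+* mouse 1, *Mrps12ep/ep* mouse 1 and *Mrps12ha/ha* mouse 2 highest in both sums. The marker sum of *Mrps12ep/ep* mouse 2 rests largely on *Ahsg* and *Trf*. The source of hepatocyte transcripts in these hearts was not tested. *Hal* was the one of the 26 whose groups did not overlap in *Mrps12ha/ha* against *Mrps12+/+*, with 8.60, 6.10 and 8.20 in *Mrps12+/+* and 42.3, 54.4 and 11.8 in *Mrps12ha/ha* hearts, counts near the lower limit of the test (log2 fold change 1.87, SE 0.88, adjusted p = 0.266 from limma).

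The 16 members above the markers include the enzymes that a beating heart uses for amino acids. *Got2* and *Got1*, the mitochondrial and cytosolic aspartate aminotransferases of the malate-aspartate shuttle, were the most abundant by normalized count over all 9 hearts, with means of 32791 and 24789. They were followed by *Glul* (19933), *Bckdha* (10490), *Oat* (5459), *Glud1* (4551), *Aldh4a1* (4211) and *Bcat2* (3179). Per length in *Mrps12+/+* hearts, *Got1* had 346 ± 9.80, *Got2* 224 ± 12.5 and *Glul* 216 ± 58.0 RPKM (SD, n = 3). *Got2* and *Glul* did not differ beyond their spread.

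Against *Mrps12+/+*, *Mrps12ha/ha* hearts had a median of -0.20 over the 40 members (all genes -0.02) and of -0.06 over the 16. The log2 fold change was below 0 for 27 members, against 52.3% of genes, and above 0 for 13, against 47.7%. No member passed an adjusted p of 0.05 with limma (0.0311% of genes did) or limma-voom, and 2 were lower and 0 higher at an unadjusted p under 0.05, where 10.1% and 9.64% of genes were. The groups did not overlap for 3 members that were higher, *Hal*, *Asl* and *Bcat2*, against 11.1% of genes, and for 1 that was lower, *Oat*, against 10.0%. *Oat* had 6015, 6320 and 6449 normalized counts in *Mrps12+/+*, 5748, 5945 and 6001 in *Mrps12ep/ep* and 3580, 5759 and 3313 in *Mrps12ha/ha* hearts. Mice 1 and 3 of *Mrps12ha/ha* were well below all others and mouse 2 was just below the *Mrps12+/+* range (log2 fold change -0.61, SE 0.19, adjusted p = 0.208 from limma). *Bcat2*, which starts branched-chain amino acid breakdown in muscle, had 3030, 3115 and 3185 in *Mrps12+/+* and 3831, 3367 and 3358 in *Mrps12ha/ha* hearts, a log2 fold change of 0.18 (SE 0.15, adjusted p = 0.508 from limma). *Asl* was 0.60 (adjusted p = 0.339).

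**Figure D5:**
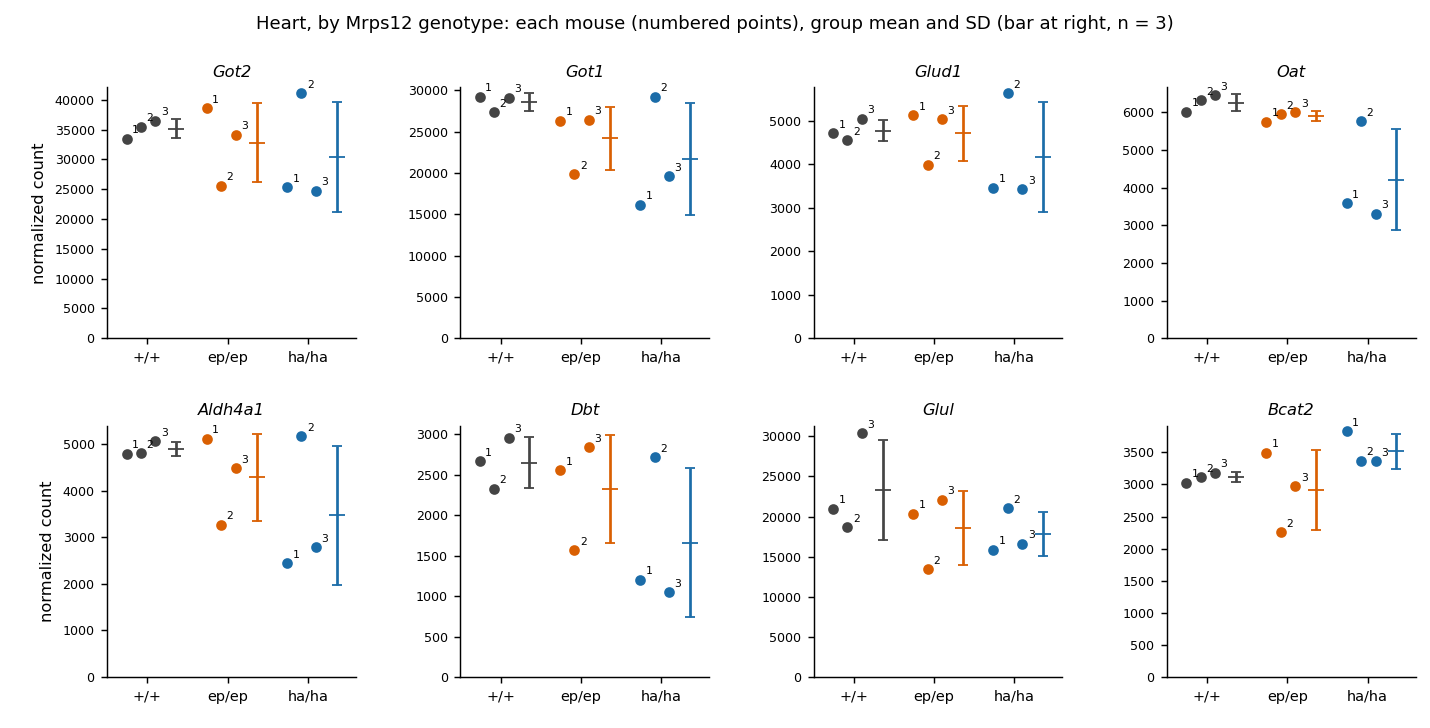
Normalized counts (vertical axes, from 0) of 8 genes in the heart; points are the 3 mice of each genotype and the bars the mean ± SD. Mice 1 and 3 of *Mrps12ha/ha* lie below the other hearts in *Got2*, *Got1*, *Glud1*, *Oat*, *Aldh4a1* and *Dbt*, and mouse 2 does not. This pattern was found in 7 of 40 members and in 20.9% of all genes.

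*Mrps12ha/ha* mice 1 and 3 lay below the other 7 hearts for 7 of 40 members, *Dbt*, *Glud1*, *Got1*, *Got2*, *Aldh4a1*, *Aass* and *Oat*, against 20.9% of genes. *Dbt*, a subunit of the branched-chain dehydrogenase, had 2665, 2325 and 2955 normalized counts in *Mrps12+/+*, 2557, 1565 and 2837 in *Mrps12ep/ep* and 1204, 2718 and 1051 in *Mrps12ha/ha* hearts. *Got2* had 33481, 35512 and 36519, then 38623, 25604 and 34166, then 25354, 41097 and 24761 in the same order. Without *Mrps12ha/ha* mouse 2, *Dbt* (-1.23), *Aldh4a1* (-0.90), *Oat* (-0.86), *Got1* (-0.68) and *Glud1* (-0.47) were lower and *Amt* (0.72), of the glycine cleavage system, was higher than in *Mrps12+/+* hearts at an adjusted p under 0.05 (limma). These were 6 of 39 members tested, while 26.9% of all genes passed in that fit, and 12 members did not overlap and were lower, against 29.9% of genes, with 4 higher, against 28.3%. With array weights 9 members passed, among 34.7% of genes. Atrial markers (7 genes) summed to between 8944 and 15036 in *Mrps12ha/ha* hearts and to 13422, 172101 and 126977 in *Mrps12+/+* hearts, with 7187, 392300 and 100419 in *Mrps12ep/ep* hearts, and their part was not tested.

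In *Mrps12ep/ep* against *Mrps12+/+* hearts the log2 fold change was below 0 for 38 of 40 members, against 52.2% of genes. It was above 0 for 2, against 47.7%. By mean normalized count, *Asl*, *Gls2*, *Sds* and *Hal* were higher in *Mrps12ep/ep* hearts. The median was -0.31, against -0.01 for all genes. The log2 fold change of the hepatocyte markers was below 0 for 15 of 15 genes, with a median of -2.70. The 16 members above the hepatocyte markers had a median of -0.18 and the 24 others tested of -1.47. The split used the values of these same hearts, so a lower median of the 24 is partly built in. No member passed an adjusted p of 0.05 (limma; 0.00% of genes did) or was called by limma-voom, and 0 were at an unadjusted p under 0.05, where 1.05% of genes were higher and 0.635% lower. The groups did not overlap for 2 members that were lower, against 3.64% of genes, and for 0 that were higher, against 4.40%. They were *Got1*, with 29194, 27302 and 29109 against 26303, 19823 and 26414 normalized counts (log2 fold change -0.25), and *Oat* (-0.09), whose nearest values in the groups were 6015 and 6001. Without *Mrps12ep/ep* mouse 2 the median was -0.28, with 30 lower and 10 higher. In that fit 0 members passed (0.00624% of genes did), 2 did not overlap and were lower, against 8.72% of genes, and 0 were higher, against 8.49%. Without *Mrps12ep/ep* mouse 1, the one of its group with the highest hepatocyte marker median, 23 of 39 were lower without overlap (11.6% of genes) and 0 higher (10.8%).

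Between the mutants, *Mrps12ha/ha* hearts had a median of 0.50 over the 40 members against *Mrps12ep/ep*, of 0.18 over the 16 and of 1.26 over the 24, where the hepatocyte markers had 2.18 and all genes -0.02. The difference between the 16 and the 24 is again partly built into the split. The log2 fold change was above 0 for 30 members, against 47.5% of genes, and below 0 for 10, against 52.5%. No member separated the groups in either direction, against 8.77% of genes higher and 7.82% lower. None passed an adjusted p of 0.05 (limma; 0.0249% of genes did, and limma-voom called no member), and 1 was higher (*Hpd*) and 1 lower (*Oat*) at an unadjusted p under 0.05, where 9.07% and 8.86% of genes were. *Oat* was -0.53 (SE 0.19, adjusted p = 0.249). Without *Mrps12ha/ha* mouse 2, 5 members passed (*Dbt*, *Glud1*, *Aldh4a1* and *Oat* lower, *Amt* higher), among 23.2% of genes, and 3 did not overlap and were higher and 8 lower, against 25.3% and 25.9% of genes. Without *Mrps12ep/ep* mouse 1 the median was 0.92, and 22 did not overlap and were higher and 2 lower, against 16.9% and 16.0% of genes. The 77 other enzymes and transporters tested in the heart had medians of -0.25 in *Mrps12ha/ha* and -0.10 in *Mrps12ep/ep* against *Mrps12+/+*, and 0 passed an adjusted p of 0.05. The largest changes without overlap in *Mrps12ha/ha* were *Abat*, the GABA transaminase (-1.74, adjusted p = 0.185), and *Mccc2*, a subunit of the leucine pathway carboxylase (0.73, adjusted p = 0.163), both from limma.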

How the data were processed

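RNA-seq was done on total heart and liver RNA of 3 *Mrps12+/+*, 3 *Mrps12ep/ep* and 3 *Mrps12ha/ha* mice on the HFD. Per the labels and the methods, the authors trimmed reads with Trim Galore 0.4.1 and cutadapt 1.18, checked them with FastQC 0.11.8, quantified transcripts with Salmon 1.1.0 on GENCODE vM21 (GRCm38.p6), summed them to genes, left out mitochondrial transcripts and normalized each tissue by itself with DESeq2. The deposited values are these normalized counts, 1 column per mouse and tissue (18 columns of 54 technical libraries), so that expression from the mitochondrial genome is not measured and heart and liver are not on one scale. Values set between tissues are therefore shares of reads. The authors' comparison tables hold shrunken fold changes and p-values and were not used.

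In every column the values were whole multiples of one step (100.0% within 0.1 of a read), which gave reads and depths. Log2(normalized count + 1) entered the linear model of limma 3.58.1 under R 4.3.3, with a mean-variance trend and the 9 mice of a tissue in one fit, for genes with a mean of at least 10, with the Benjamini-Hochberg correction taken over all of them (threshold 0.05). Fold changes of low genes are understated by adding 1. The planned edgeR and DESeq2 fits were not run. The alternative on the recovered reads was limma-voom, added after the data were seen. Lengths are exon unions of GENCODE vM21. Python 3.11.15, pandas 2.3.3, numpy 2.4.6 and matplotlib 3.10.9 were used for the rest. The test was run on simulated counts with the same spread for every gene and no mouse that stood apart. That run therefore does not cover mice that stand apart, as some do here.

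The 42 genes, the gene lists and the tests were chosen with earlier results of these data known. Named are members past the threshold, the 4 members with the largest change in each direction among those without overlap, one or more known enzymes of each pathway in the liver (17 genes), the 8 most abundant members in the heart and, of other lists, up to 4 genes without overlap. *Cps1*, *Dbt* and *Hpd* in the heart, and members given where a mouse stands apart or for their pathway, were chosen after their values were seen. The promoters are RefSeq's. Labels do not state that mice came from separate litters, so p-values measure the spread between these mice. No batch is given in the labels.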

Additional observations from a re-analysis of the deposited data

How the results depend on the processing

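The number of members called by limma, 0 in each comparison, was the same in 80 of 90 recalculated values. Of 329 values of single members, 320 kept their call and direction, 9 became calls and 0 reversed. With array weights, 9 members were called in *Mrps12ha/ha* against *Mrps12+/+* hearts (34.7% of all genes were) and 10 in *Mrps12ha/ha* against *Mrps12ep/ep* hearts (39.3%). In *Mrps12ha/ha* against *Mrps12ep/ep* livers 1 member was called, where 13 of all 15314 genes were. With only the genotypes compared in the fit, 2 were called in that liver comparison (*Tat* and *Sds*, with 0.118% of all genes). With the replicate block, 1 was (*Tat*, adjusted p = 0.0404 from limma), where 6 of all genes were. Same-numbered mice correlated between -0.23 and 0.58 in their deviations from the group means, so the numbers were not taken to pair them. After quantile normalization, the members that did not overlap and were lower numbered 2 in *Mrps12ha/ha* and 1 in *Mrps12ep/ep* against *Mrps12+/+* hearts and 1 between the mutants, and those that were higher numbered 11 in *Mrps12ep/ep* against *Mrps12+/+* livers. The cause was not tested. Shares of all genes are not given for these counts, so whether the members moved more than other genes cannot be told from them. The members' median in that liver comparison was then 0.47, and that of all genes 0.03.

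Without one mouse at a time, the number called ranged from 0 to 6 in *Mrps12ha/ha* and was 0 in *Mrps12ep/ep* against *Mrps12+/+* hearts, and from 0 to 5 between the mutants. The 6 and the 5 were called without *Mrps12ha/ha* mouse 2, where 26.9% and 23.2% of all genes were. In the liver it ranged from 0 to 2 in *Mrps12ha/ha* against *Mrps12+/+* (*Tat* without *Mrps12+/+* mouse 2 or 3, *Prodh* without mouse 2), from 0 to 1 in *Mrps12ep/ep* against *Mrps12+/+* (*Sds* without *Mrps12+/+* mouse 1, adjusted p = 0.0295) and was 0 between the mutants. Of all genes, 92 were called in *Mrps12ha/ha* without mouse 2, 92 without mouse 3, and 26 in *Mrps12ep/ep* without mouse 1. Members that did not overlap and were higher ranged in the heart from 3 to 6 in *Mrps12ha/ha* against *Mrps12+/+*, from 0 to 1 in *Mrps12ep/ep* against *Mrps12+/+* and from 0 to 22 between the mutants, and in the liver from 13 to 26, from 18 to 30 and from 3 to 5. Those that were lower ranged from 1 to 12, from 2 to 23 and from 0 to 8 in the heart and from 1 to 2, from 0 to 1 and from 10 to 22 in the liver. Single mice that moved these counts most were, in the heart, *Mrps12ep/ep* mouse 1 and *Mrps12ha/ha* mouse 2. Without *Mrps12ep/ep* mouse 1, 23 were lower in *Mrps12ep/ep* than in *Mrps12+/+* (11.6% of all genes) and 22 higher in *Mrps12ha/ha* than in *Mrps12ep/ep* (16.9%). Without *Mrps12ha/ha* mouse 2, 12 were lower against *Mrps12+/+* (29.9%) and 8 against *Mrps12ep/ep* (25.9%). In the liver they were *Mrps12+/+* mouse 1, *Mrps12ep/ep* mouse 2 and *Mrps12ha/ha* mouse 2. Without *Mrps12+/+* mouse 1, 29 were higher in *Mrps12ep/ep* (15.5% of all genes) and 26 in *Mrps12ha/ha* (15.8%). Without *Mrps12ep/ep* mouse 2, 30 were higher than *Mrps12+/+* (11.6%) and 22 lower in *Mrps12ha/ha* (17.6%). Without *Mrps12ha/ha* mouse 2, 17 were lower than in *Mrps12ep/ep* (15.7%). Medians ranged from 0.29 to 0.65 in *Mrps12ep/ep* and from 0.09 to 0.57 in *Mrps12ha/ha* against *Mrps12+/+* livers, both lowest without *Mrps12+/+* mouse 3, and from -0.52 to 0.08 in *Mrps12ha/ha* against *Mrps12+/+* hearts, where the sign turned without *Mrps12+/+* mouse 1 (0.08) or *Mrps12ha/ha* mouse 1 (0.07). Calls over all genes ranged from 3 to 5573 in that heart comparison and from 3 to 6314 between the mutant hearts. The planned edgeR and DESeq2 fits were not run, and limma-voom was the one fit on recovered reads. With 3 mice a group and 1 read worth up to 3.02 normalized counts, heart members near a mean of 10 rest on few reads.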
